A study of Homo sapiens with 6 samples.

Results

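The genes of sterol and fatty acid synthesis were followed in H1155 cells with and without editing of GFI1. The set holds 31 of the 58735 genes in the count table, matched by gene symbol: 7 genes of the mevalonate arm, 11 of the squalene and sterol arm, 6 sensors and regulators, 5 genes of fatty acid synthesis and 2 sterol exporters. Membership was set by symbol, with earlier results of these data known, and all 31 genes passed the filter on low counts.

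H1155 is a human neuroendocrine large cell lung cancer cell line, and GFI1 is a zinc finger transcriptional repressor best known from blood cells. RNA from 6 libraries was counted, 3 labelled wildtype (WT) and 3 labelled GFI1-KO, to compare the transcriptomes of H1155 cells with and without GFI1. The cells of both groups grew untreated in DMEM with fetal bovine serum, which itself carries cholesterol and fatty acids. The GFI1-KO cells came from H1155 transfected with a pair of plasmids that carried Cas9 and guides against the GFI1 promoter region, after which GFP-positive cells were sorted and grown as monoclonal clones. How many clones lie behind the 3 libraries, and whether libraries of a group came from separate cultures, is not given in the sources used here. The p-values therefore measure the spread between these libraries, which may be technical, and an effect of the edit and a property of a clone cannot be told apart.

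Cholesterol is built from acetyl-CoA through the mevalonate arm to farnesyl diphosphate, and from there through squalene and lanosterol to the sterol ring. Fatty acids start from the same cytosolic acetyl-CoA, which is carboxylated, elongated and desaturated. Both routes are under the control of the SREBP transcription factors, which SCAP escorts out of the endoplasmic reticulum when sterols are low and the INSIG proteins hold back when sterols are high. Efflux through ABCA1 and ABCG1 is induced by the LXR receptors when sterols are abundant.

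Library totals lay between 14882914 and 17692882 counts, so that 3 counts, taken as the smallest a library can show, corresponded to 0.170 to 0.202 CPM, counts scaled by the library total. GFI1 itself had 157, 117 and 131 normalized counts under the WT label and 166, 178 and 160.0 in libraries labelled GFI1-KO. The targeted gene was thus not lower where the label says knockout (log2 fold change 0.31, SE 0.12, adjusted p = 0.0273). That value was 0.18 after correction for GC content and gene length (adjusted p = 0.213), and its adjusted p was above 0.05 also with DESeq2 (0.128), with upper-quartile factors (0.0545) and without WT replicate 2 (0.147), WT replicate 3 (0.0633) or GFI1-KO replicate 2 (0.0927). The study describes GFI1 as deleted in its edited H1155 cells and examined GFI1 protein there by immunoblot. Protein is not measured by these RNA counts. Every direction below therefore rests on the labels. The 8 neuroendocrine markers summed to 323 to 337 FPKM (counts scaled by gene length and library total) under the WT label and 396 to 397 under the GFI1-KO label, and INSM1 was the most abundant of them. The summed fibroblast markers were 16.5 to 16.9 and 12.5 to 12.9 FPKM, a sum carried by COL1A2, and DCN was at 0 throughout. Of the 4 fibroblast markers tested, COL1A1 and COL1A2 fell, while COL3A1 rose from 2, 3 and 2 counts to 129, 143 and 170, and PDGFRA from 1, 2 and 0 to 17, 16 and 14. The leukocyte markers stayed at or below 0.335 FPKM with CD3E at 0. The part of such differences in the results was not tested.

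Under the GFI1-KO label, 16 of the 31 genes fell and 12 rose, while ACAT2, ACACA and ABCA1 did not pass the test. The largest decreases were those of the sterol exporter ABCG1 (2.38-fold), the SREBP retention factor INSIG1 (2.18-fold), the stearoyl-CoA desaturase SCD (2.13-fold) and the fatty acid elongase ELOVL6 (1.91-fold). The largest increases were those of CYP51A1 (3.32-fold, at a low level), the lanosterol synthase LSS (1.79-fold) and the kinase PMVK (1.67-fold, not passing the test once corrected for GC content). Genes of the same linear pathway thus differed in direction, with or without that correction. In bulk RNA, fewer cells that express a gene and less of its RNA per cell cannot be told apart. A gene was called where its p from the quasi-likelihood test of edgeR, adjusted over all 17514 genes tested by the Benjamini-Hochberg method, did not exceed 0.05.

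These counts stand against a background in which most genes differed. Of all genes tested, 36.5% were called higher and 35.9% lower, beside 38.7% and 51.6% of the set, so the share of increases was close to the background. Where the log2 fold change also had to reach 0.5 in size, 6 members rose and 9 fell, against 24.1% and 20.2% of all genes. The values of the groups did not overlap for 29 of the 31 members, ACAT2 and ACACA being the exceptions, and for 74.4% of all genes tested. The median log2 fold change of the members was -0.11 and that of all genes tested 0.00, and the members ranged from -1.25 to 1.73. The 31 genes together took 0.305% ± 0.00303 (SD, n = 3) of the counts in the libraries labelled WT and 0.268% ± 0.00191 (SD, n = 3) in those labelled GFI1-KO.

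**Figure D1:**
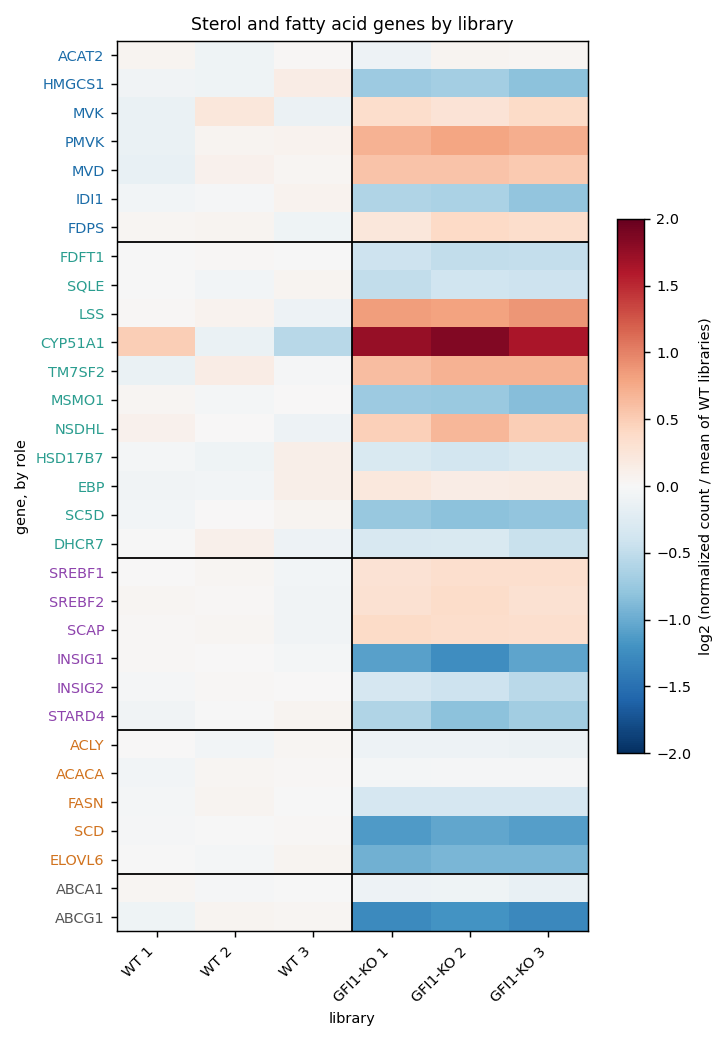
Each of the 31 genes in each of the 6 libraries, grouped by role. Colour gives the log2 ratio of the normalized count to the gene's mean over the libraries labelled WT, red above and blue below it, and columns are the libraries labelled WT and GFI1-KO. The 3 libraries of a group are alike for nearly every gene, and CYP51A1 varies most under the WT label. Genes of both directions lie next to each other within the mevalonate arm and the squalene and sterol arm. Of 5 fatty acid synthesis genes, 0 were called higher, beside 36.5% of all genes tested. Values are without the GC correction. With it, the log2 fold change of 13 genes changes sign, of which 3, EBP, SREBF1 and SCAP, are called in both fits.

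**Figure D2:**
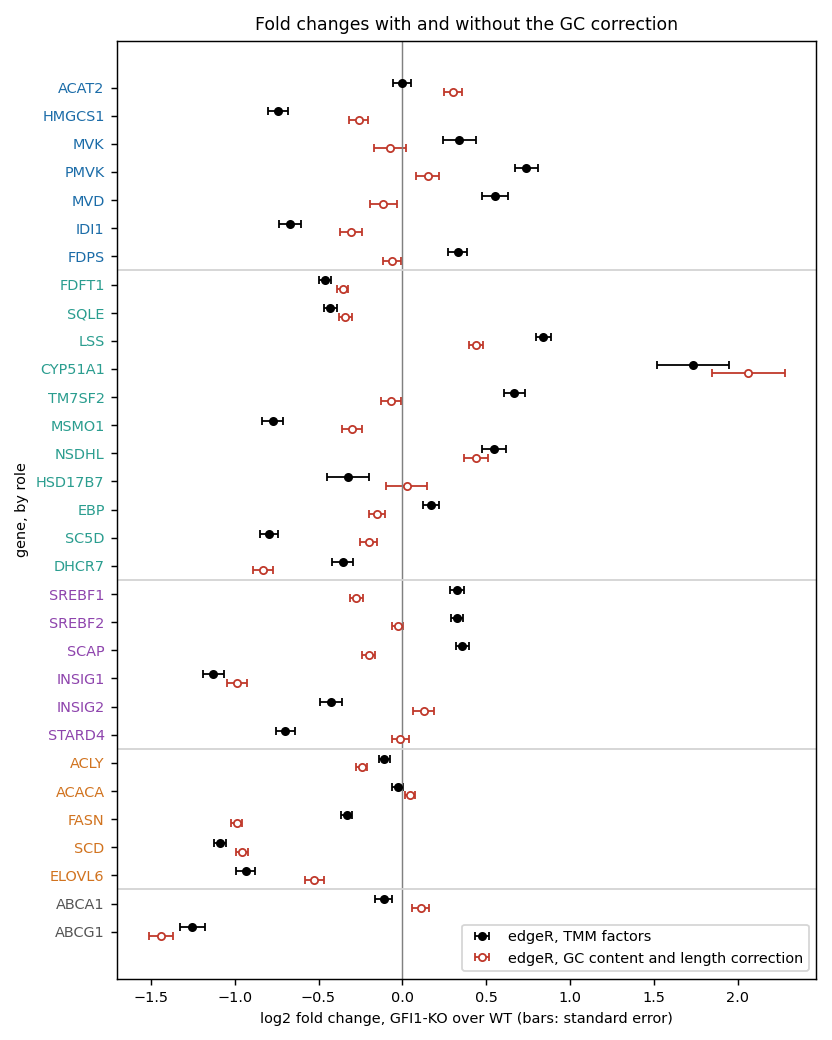
Log2 fold change of each gene, GFI1-KO label against WT label, without (filled black) and with (open red) the correction for GC content and gene length. Points are edgeR estimates and bars 1 standard error. Of 12 genes called higher, 3 were called higher also after the correction, whereas 13 of 16 called lower were called lower in both fits. Over all genes tested, 4084 of 6395 called higher and 3514 of 6285 called lower were so called in both fits.

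Members rich in GC tended to be higher, and members poor in GC lower. The 12 genes called higher had a median GC content of 58.2%, and 11 of them lay above the 48.2% median of all genes tested. The 16 called lower had a median of 43.3%, and 4 of them lay above it. Spearman's rho between GC content and log2 fold change was 0.577 across the 31 members and 0.574 across all genes tested, as a description across genes that share the same 6 libraries. GC content was measured on the longest transcript of each gene.

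A fit with offsets that level genes of like GC content and length between libraries was set beside each result, and rho across the members was -0.0839 in it. In this fit 4 members were higher and 16 lower, against 33.2% and 27.7% of all genes, and the median of the members was -0.15 beside 0.03 for all genes. HMGCS1, IDI1, FDFT1, SQLE, MSMO1, SC5D, DHCR7, INSIG1, ACLY, FASN, SCD, ELOVL6 and ABCG1 were lower in both fits. LSS, CYP51A1 and NSDHL were higher in both. EBP, SREBF1 and SCAP were higher without and lower with the correction, and 9 further called genes, 6 higher and 3 lower, did not pass the test with it. Whether the relation to GC content arose in the libraries or in the cells was not tested, and with the GC difference lying between the groups, it and the genotype cannot be told apart.

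**Figure D3:**
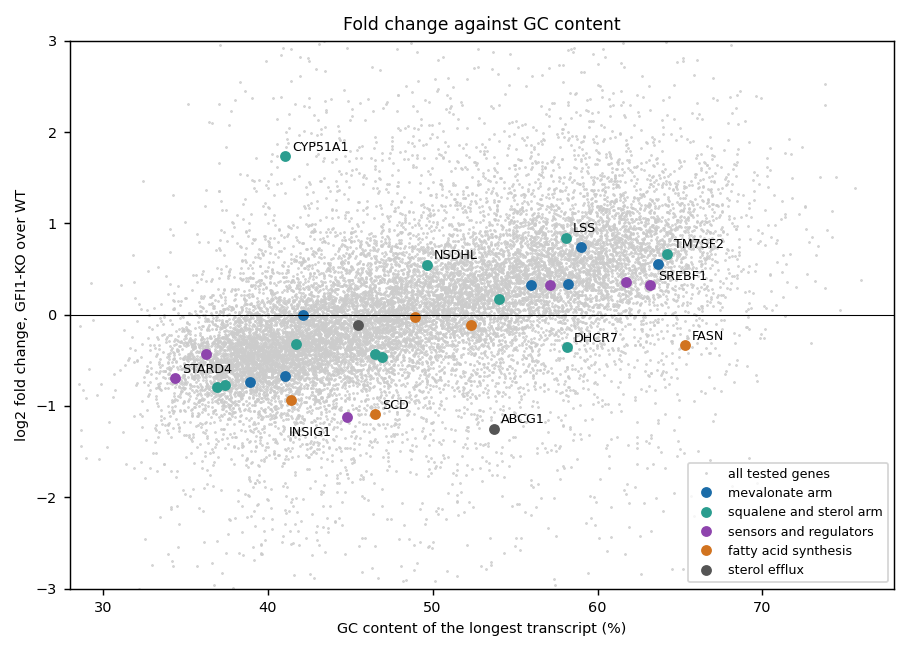
Log2 fold change against GC content for all genes tested with a known GC content (grey, of which 300 of 17415 lie outside the axes) and the 31 members coloured by role. Each point is a gene, and no correction was applied. The members poorest in GC mostly lie under 0 and those richest in GC above it, whereas CYP51A1 stands apart from the former and FASN and DHCR7 from the latter.

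In the mevalonate arm, 4 of 7 genes rose and 2 fell without the correction, and 1 rose and 2 fell with it. Beside these small counts, 36.5% of all genes tested were called higher and 35.9% lower, and 33.2% and 27.7% with the correction. HMGCS1, which condenses acetyl-CoA and acetoacetyl-CoA to HMG-CoA, had 1474, 1446 and 1702 normalized counts under the WT label and 930.0, 964 and 871 under the GFI1-KO label. All 3 latter values lay well below the former, and HMGCS1 fell 1.67-fold (log2 fold change -0.74, SE 0.06, adjusted p = 7.51e-12; corrected -0.26, adjusted p = 0.00025). IDI1, the isomerase that makes dimethylallyl diphosphate, had 681, 694 and 742 against 467, 456 and 408. It fell 1.59-fold without overlap (log2 fold change -0.67, SE 0.07, adjusted p = 1.18e-09; corrected -0.30, adjusted p = 0.000276).

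The kinases and the decarboxylase between these enzymes went the other way without the correction only. PMVK, phosphomevalonate kinase, had 383, 434 and 442 normalized counts under the WT label and 682, 728 and 691 under the GFI1-KO label. The groups lay far apart, and PMVK rose 1.67-fold (log2 fold change 0.74, SE 0.07, adjusted p = 2.05e-10), but the corrected value was 0.15 (adjusted p = 0.0559). MVD, mevalonate diphosphate decarboxylase, had 274, 323 and 313 against 449, 448 and 437. Its 1.47-fold rise (log2 fold change 0.55, SE 0.08, adjusted p = 5.45e-07) became -0.11 with the correction (adjusted p = 0.22). MVK, mevalonate kinase, had 209.9, 270.1 and 214 against 296, 280.5 and 300.2, which lay close together without overlap. It was higher by 0.34 on the log2 scale (SE 0.10, adjusted p = 0.00312), and its corrected value was -0.07 (adjusted p = 0.516). FDPS, which joins the isoprenoid units to farnesyl diphosphate, had 759, 766 and 695 against 865, 976 and 946. It was higher by 0.33 (SE 0.06, adjusted p = 2.02e-05) and stood at -0.06 with the correction (adjusted p = 0.352).

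ACAT2, the cytosolic thiolase at the head of the arm, had 1139.6, 1037 and 1119.9 normalized counts under the WT label (mean 1099 ± 54.3, SD, n = 3) and 1022, 1138 and 1127 under the GFI1-KO label (mean 1096 ± 63.9, SD, n = 3). Its groups overlapped, and its log2 fold change of -0.00 (SE 0.05, adjusted p = 0.943) became 0.30 with the correction (adjusted p = 1.94e-05). ACAT2 overlaps TCP1 on the opposite strand, and since the strand setting of the counting is not given, reads of the pair cannot be told apart. On the FPKM scale, the ratio of MVD to HMGCS1 was 0.186, 0.223 and 0.183 in the libraries labelled WT and 0.481, 0.464 and 0.499 in those labelled GFI1-KO. All 3 ratios of the latter group were higher, a difference within each library between members of the pathway whose GC contents were 63.7% and 39.0%. The corrected log2 fold changes of MVD and HMGCS1, -0.11 and -0.26, lay much closer together than the uncorrected 0.55 and -0.74.

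**Figure D4:**
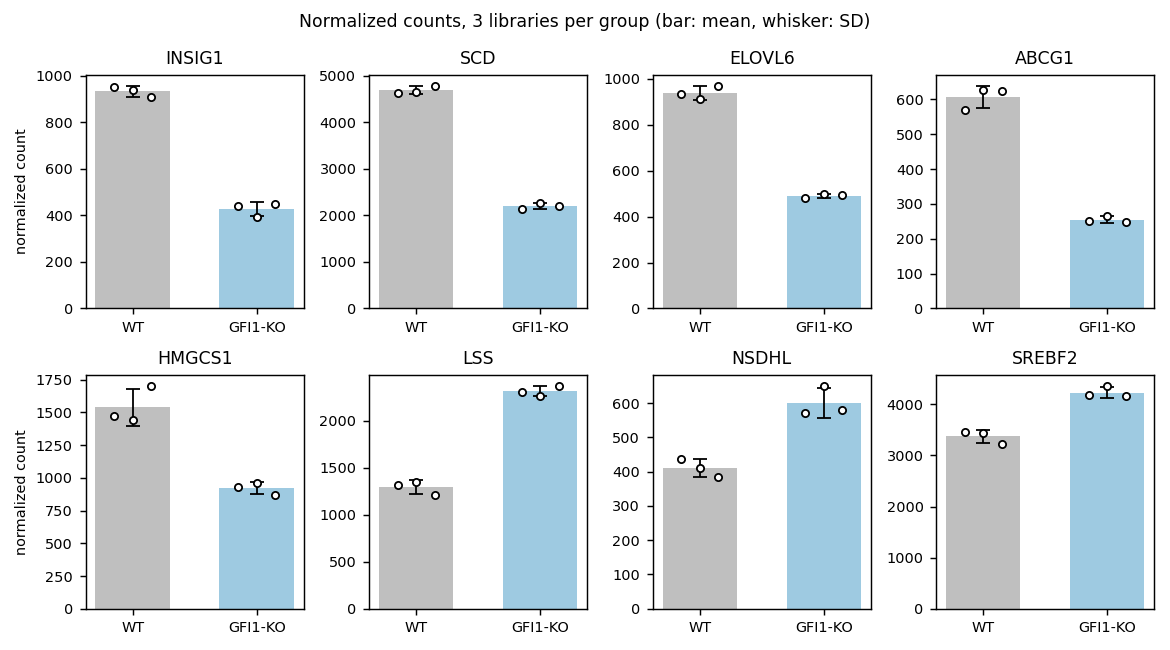
Normalized counts of INSIG1, SCD, ELOVL6, ABCG1, HMGCS1, LSS, NSDHL and SREBF2, 1 point a library, with the group mean as a bar and 1 SD as error bars. The points of the groups do not overlap in any panel, and for INSIG1, SCD and ABCG1 the lowest library labelled WT, at 909, 4635 and 570.3, lies above the highest labelled GFI1-KO, at 448, 2273 and 266. SREBF2 did not pass the edgeR test with the GC correction (log2 fold change -0.03, adjusted p = 0.499).

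At the entry to the sterol branch, the enzymes that commit farnesyl diphosphate to sterols fell. FDFT1, squalene synthase, had 3025, 3087 and 3050.2 normalized counts under the WT label and 2287, 2166 and 2190.0 under the GFI1-KO label. SQLE, the rate-limiting squalene epoxidase, had 2545, 2463 and 2639.8 against 1821, 1945 and 1911. Both genes were lower in every library labelled GFI1-KO than in any labelled WT. FDFT1 fell 1.38-fold (log2 fold change -0.46, SE 0.04, adjusted p = 8.96e-12; corrected -0.36) and SQLE 1.35-fold (-0.43, SE 0.04, adjusted p = 2.63e-10; corrected -0.34).

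LSS (chr21:46188141-46228824 in GRCh38, minus strand), which closes oxidosqualene to lanosterol, had 1314, 1349 and 1209 normalized counts under the WT label and 2301, 2266 and 2368 under the GFI1-KO label. The next enzyme after SQLE was therefore higher in every library of the group in which SQLE was lower. LSS rose 1.79-fold (log2 fold change 0.84, SE 0.04, adjusted p = 2.56e-15) and was also higher with the correction (0.44, adjusted p = 9.64e-10). The FPKM ratio of LSS to SQLE was 0.302 ± 0.0271 (SD, n = 3) and 0.727 ± 0.0305 (SD, n = 3), without correction for their GC contents of 58.1% and 46.5%.

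CYP51A1, lanosterol demethylase, had the lowest FPKM of the members under the WT label, with 40, 24 and 19 counts under the WT label and 102, 111 and 96 under the GFI1-KO label. It rose 3.32-fold (log2 fold change 1.73, SE 0.22, adjusted p = 6.87e-08; corrected 2.06), and leaving out a library moved the log2 fold change between 1.51 and 2.06. The gene is uncertain, since 67.5% of the 50-base stretches in its transcripts are found in other genes too, foremost AC000120.2, which overlaps it on the same strand and had 0 counts. At 0.494 and 1.63 FPKM, it lay far below its neighbours LSS and MSMO1.

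MSMO1, the C4-methylsterol oxidase, had 844, 803 and 824 normalized counts under the WT label and 496, 493 and 456 under the GFI1-KO label. SC5D, the sterol C5-desaturase, had 1043, 1094 and 1128 against 641, 614 and 627. Both fell without overlap, MSMO1 by 0.77 on the log2 scale (SE 0.06, adjusted p = 1.03e-11; corrected -0.30) and SC5D by 0.79 (SE 0.05, adjusted p = 8.32e-13; corrected -0.20). DHCR7, the 7-dehydrocholesterol reductase, had 759.7, 820.3 and 716 against 614, 619 and 561. Its decrease (log2 fold change -0.36, SE 0.06, adjusted p = 1.76e-05) was larger with the correction (-0.83, adjusted p = 1.63e-11), for a gene with 58.1% GC.

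NSDHL, which removes the C4 carboxyl group, had 438, 411 and 383 normalized counts against 572, 650.1 and 581, and rose without overlap (log2 fold change 0.55, SE 0.07, adjusted p = 1.62e-07; corrected 0.44, adjusted p = 6.82e-06). TM7SF2, a sterol C14-reductase, had 555, 673 and 600.4 against 935, 984 and 983. It rose before the correction (0.67, SE 0.06, adjusted p = 3.78e-10), but its corrected value was -0.07 (adjusted p = 0.327). TM7SF2 overlaps VPS51 on the same strand. EBP, the sterol isomerase, had 1336, 1348 and 1511 against 1611, 1549 and 1565. It was higher by 0.17 (SE 0.05, adjusted p = 0.00227) and lower by the corrected value of -0.15 (adjusted p = 0.00998). EBP is uncertain, with 31.4% of its stretches shared with other genes. HSD17B7, the 3-keto-reductase of the C4 demethylation, is uncertain likewise, at 14.2%. Its normalized counts were 146, 141 and 163 against 121, 117 and 121. It was lower at -0.33 (SE 0.12, adjusted p = 0.0211), but the adjusted p was 0.119 with DESeq2, 0.0526 with no filter, 0.0851 without WT replicate 3 and 0.0579 without GFI1-KO replicate 2, and the corrected value was 0.03. Of the 11 genes of this arm, 5 rose and 6 fell without the correction, and 3 rose and 6 fell with it. The shares of all genes tested were 36.5% and 35.9% without the correction, and 33.2% and 27.7% with it.

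Among the sensors and regulators, INSIG1 changed most. INSIG1 (chr7:155297776-155310235 in GRCh38, plus strand) and INSIG2 (chr2:118088452-118110997, plus strand) encode the proteins that retain SCAP in the endoplasmic reticulum, and INSIG1 is itself a classical SREBP target. INSIG1 had 954, 941 and 909 normalized counts under the WT label and 441, 395 and 448 under the GFI1-KO label. The level was lower in every library of the latter group, and INSIG1 fell 2.18-fold (log2 fold change -1.13, SE 0.06, adjusted p = 8.64e-15; corrected -0.99, adjusted p = 5.85e-13). INSIG2 had 694, 714 and 706 against 560.3, 529.7 and 484. INSIG2 fell less before the correction (-0.43, SE 0.06, adjusted p = 1.35e-06), and its corrected value was 0.13 (adjusted p = 0.0774). The FPKM ratio of INSIG1 to INSIG2 was 1.49, 1.43 and 1.39 under the WT label and 0.852, 0.807 and 1.00 under the GFI1-KO label, so that the ranges did not overlap. These ratios carry no correction for the GC contents of 44.8% and 36.3%.

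SREBF2, which encodes the SREBP of sterol synthesis, had 3461, 3435 and 3225 normalized counts against 4176, 4358 and 4154. SREBF1, which encodes the SREBPs of fatty acid synthesis and is transcribed opposite to part of RAI1, had 1514, 1543 and 1446 against 1841, 1903 and 1895. SCAP had 1678, 1693 and 1577 against 2152, 2100.0 and 2090.2. The values of these genes were higher in all libraries labelled GFI1-KO, by 0.33, 0.32 and 0.36 on the log2 scale (adjusted p = 7.29e-09, 9.69e-08 and 1.18e-08), whereas the corrected values were -0.03, -0.27 and -0.20 (adjusted p = 0.499, 9.61e-07 and 5.56e-05). SREBF1 and SCAP thus turned from higher to lower with the correction, whereas SREBF2 did not pass the test with it. The FPKM ratio of SREBF2 to SREBF1 was 2.39 ± 0.0352 (SD, n = 3) and 2.39 ± 0.0551 (SD, n = 3), and its ranges overlapped. STARD4, a cytosolic sterol carrier, had 1189.8, 1242 and 1296 normalized counts against 823, 705 and 768. It was lower without overlap (-0.70, SE 0.06, adjusted p = 2.23e-11), and its corrected value was -0.01 (adjusted p = 0.858). STARD4-AS1 lies on the opposite strand of STARD4, as do MMAB for MVK, RUSC1-AS1 for FDPS and SREBF2-AS1 for SREBF2, among others, and without a known strand setting the reads of such pairs cannot be told apart.

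The promoters of the 26 members matched in RefSeq (GRCh38.p14) were searched for the letters of sites known from sterol-regulated genes, on both strands of the 300 bases from 250 before to 50 after each start. ACAT2, FDFT1, SQLE, FASN and ABCG1 were not matched. The core of the sterol regulatory element, CACNCCAC, occurred in 7 of 26 members (26.9%) and in 7.05% of 27305 genes. Those 7 were IDI1, SC5D, SREBF2, INSIG1, ACACA, SCD and ABCA1, of which IDI1, SC5D, INSIG1 and SCD were lower in both fits. So were 13 of all 31 members and 3514 of the 17415 genes tested with the correction. A relation of the element to the direction was not tested. The longer form TCACNCCAC, which contains that core, occurred in SREBF2 alone, and in 1.39% of genes. CCAAT, the box bound by NF-Y, occurred in 19 (73.1%) against 39.7% of genes, and GGGCGG, the box bound by Sp1, in 25 (96.2%) against 48.3%. The E-box CACGTG occurred in 5 (19.2%) against 8.77%, and AAATCAC, which holds the core that GFI1 binds, in 0 against 3.83%. A match gives letters in this window, not occupancy.

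The promoters of INSIG1 and SCD, which fell, of LSS, which rose, and of SREBF2 are printed 5′ to 3′ along the gene's strand. The call of SREBF2 depended on the correction. Capitals mark the matches to CACNCCAC, CCAAT and GGGCGG on either strand.
INSIG1, chr7:155297628-155297927, plus strand: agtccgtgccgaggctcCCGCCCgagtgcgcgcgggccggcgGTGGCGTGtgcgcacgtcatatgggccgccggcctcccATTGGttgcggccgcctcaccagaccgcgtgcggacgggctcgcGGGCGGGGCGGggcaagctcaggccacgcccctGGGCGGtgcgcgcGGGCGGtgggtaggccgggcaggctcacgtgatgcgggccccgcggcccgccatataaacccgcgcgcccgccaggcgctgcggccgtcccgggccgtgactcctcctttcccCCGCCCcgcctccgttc
SCD, chr10:100346983-100347282, plus strand: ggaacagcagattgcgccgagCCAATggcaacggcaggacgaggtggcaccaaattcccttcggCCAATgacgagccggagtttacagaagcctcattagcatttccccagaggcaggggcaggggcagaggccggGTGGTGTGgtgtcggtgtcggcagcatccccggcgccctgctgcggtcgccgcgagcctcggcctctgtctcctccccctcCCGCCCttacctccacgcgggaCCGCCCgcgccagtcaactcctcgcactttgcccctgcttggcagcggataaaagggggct
LSS, chr21:46228725-46229024, minus strand: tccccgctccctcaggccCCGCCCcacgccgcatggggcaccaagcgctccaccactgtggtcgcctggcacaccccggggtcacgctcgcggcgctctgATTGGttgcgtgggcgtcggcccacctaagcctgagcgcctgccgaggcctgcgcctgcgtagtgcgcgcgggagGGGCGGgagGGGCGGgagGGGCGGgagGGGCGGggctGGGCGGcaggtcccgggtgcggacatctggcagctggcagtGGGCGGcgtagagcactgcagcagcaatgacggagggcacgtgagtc
SREBF2, chr22:41832855-41833154, plus strand: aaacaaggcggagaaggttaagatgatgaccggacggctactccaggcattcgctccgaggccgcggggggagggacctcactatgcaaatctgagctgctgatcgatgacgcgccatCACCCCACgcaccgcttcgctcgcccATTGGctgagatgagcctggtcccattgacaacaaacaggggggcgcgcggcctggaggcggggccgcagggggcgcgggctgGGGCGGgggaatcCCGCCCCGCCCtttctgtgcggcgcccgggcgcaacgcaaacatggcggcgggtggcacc
Counted from 1 at the first base shown, the sterol element core lay at bases 43 to 50 in INSIG1 and 137 to 144 in SCD, on the opposite strand in both, and at 119 to 126 in SREBF2 on the gene's strand. The LSS window held no such core and 7 matches to GGGCGG, beside 1 CCAAT box at bases 101 to 105. All of these windows thus held CCAAT and GGGCGG, which also occur in a large share of other promoters.

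In fatty acid synthesis, 4 of 5 genes fell and 0 rose, with and without the correction. Of all genes tested, 35.9% were called lower and 36.5% higher, and 27.7% and 33.2% with the correction. The log2 fold changes of the 5 genes lay between -1.09 and -0.03 without the correction. The 5 genes took 0.135% ± 0.00220 (SD, n = 3) of all counts in the libraries labelled WT and 0.104% ± 0.000663 (SD, n = 3) in those labelled GFI1-KO. Their median was -0.33, and -0.53 with the correction, beside medians of 0.00 and 0.03 for all genes tested.

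SCD (chr10:100347124-100364834, plus strand), which places the double bond in stearoyl-CoA, had 4635, 4653 and 4787 normalized counts under the WT label and 2148, 2273 and 2198 under the GFI1-KO label. The groups lay far apart, and SCD fell 2.13-fold (log2 fold change -1.09, SE 0.04, adjusted p = 1.44e-19; corrected -0.96, adjusted p = 1.6e-17). ELOVL6, which extends palmitate to stearate, had 934, 909.9 and 969.8 against 479, 497 and 496. It fell 1.91-fold without overlap (-0.93, SE 0.06, adjusted p = 9.12e-14; corrected -0.53, adjusted p = 1.52e-08). FASN, the synthase that makes palmitate, had 6675, 7156 and 6813 against 5431, 5480.2 and 5479. Its decrease of 1.26-fold (-0.33, SE 0.03, adjusted p = 1.16e-09) was -0.99 with the correction (adjusted p = 5.11e-18), for the member with the highest GC content, 65.3%.

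The genes upstream of FASN differed less. ACLY, which makes cytosolic acetyl-CoA from citrate and was the most abundant member at 77.1 and 70.7 FPKM, had 6636, 6396 and 6841 normalized counts against 6161, 6156 and 6117. It fell by 0.11 on the log2 scale (SE 0.03, adjusted p = 0.00457; corrected -0.24, adjusted p = 5.22e-07). ACACA, the acetyl-CoA carboxylase that commits it to fatty acids, had 2917, 3107 and 3083 against 2959, 2976 and 2989.9, and its groups overlapped (-0.03, SE 0.04, adjusted p = 0.472; corrected 0.05, adjusted p = 0.238). The FPKM ratio of SCD to FASN was 1.19 ± 0.0493 (SD, n = 3) and 0.705 ± 0.0174 (SD, n = 3), without overlap. The corrected log2 fold changes of SCD and FASN were -0.96 and -0.99, so this shift of the ratio was seen without the correction only.

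Of the sterol exporters, ABCG1 fell and ABCA1 did not pass the test. ABCG1 (chr21:42199689-42297244, plus strand), which passes cholesterol to HDL, had 570.3, 628 and 623 normalized counts under the WT label and 251, 266 and 248 under the GFI1-KO label. The highest value under the GFI1-KO label lay far below the lowest under the WT label, and ABCG1 fell 2.38-fold (log2 fold change -1.25, SE 0.07, adjusted p = 3.74e-14; corrected -1.44, adjusted p = 1.26e-14). ABCA1, which passes cholesterol to lipid-poor apolipoprotein A-I, had 941, 897 and 909 against 849, 863 and 830.1. The groups did not overlap, but the difference was small (-0.11, SE 0.05, adjusted p = 0.0593; corrected 0.11, adjusted p = 0.0658). Its adjusted p fell below 0.05 with library size alone (0.0316), median-of-ratios (0.0495) or upper-quartile factors (0.0111), with at least 10 counts in every library (0.0489) and without WT replicate 2 (0.0429).

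Other genes around these pathways were also called in both directions, in shares that differed between the lists. Of 16 further genes of sterol synthesis, transport and sensing, 7 rose (43.8%) and 5 fell (31.2%), near the 36.5% and 35.9% of all genes tested. With the correction 9 rose (56.2%) and 3 fell (18.8%), beside 33.2% and 27.7%. CYB5R3, a reductase that passes electrons to cytochrome b5, rose from 1472 ± 134 to 5056 ± 74.1 normalized counts (SD, n = 3 each; log2 fold change 1.78, adjusted p = 8.22e-22; corrected 1.28). NR1H2, which encodes LXR-beta, rose from 555 ± 67.5 to 1157 ± 13.5 (1.06, adjusted p = 7.13e-14; corrected 0.44). LBR, which has sterol C14-reductase activity like TM7SF2, fell from 2518 ± 148 to 1429.9 ± 42.7 (-0.82, adjusted p = 5.65e-15; corrected -0.27).

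Among 18 tested of 19 further genes of fatty acid synthesis and activation, 7 rose (38.9%) and 10 fell (55.6%), with 5 (27.8%) and 7 (38.9%) after the correction, beside the same shares of all genes. LPIN1, a phosphatidate phosphatase, fell from 1804 ± 23.9 to 773 ± 14.8 normalized counts (SD, n = 3 each; -1.22, adjusted p = 2.89e-18; corrected -1.09). HSD17B12, a reductase of fatty acid elongation, fell by 0.89 on the log2 scale (adjusted p = 4.89e-11; corrected -0.32), and ACSL1, which activates long-chain fatty acids, by 0.88 (adjusted p = 8.74e-14; corrected -0.71). Of 14 genes of fatty acid oxidation, 6 rose and 6 fell (42.9% each), near the shares of all genes, and 6 (42.9%) and 2 (14.3%) did so with the correction. ACADVL, the very long-chain acyl-CoA dehydrogenase, rose from 4006 ± 245 to 8116 ± 384 (1.02, adjusted p = 9.74e-18; corrected 0.54), while ACAA2, the mitochondrial thiolase, fell by 0.95 (adjusted p = 7.53e-15; corrected -0.65). ECI1, an enoyl-CoA isomerase, rose by 0.69 (adjusted p = 1.99e-12), with a corrected value of -0.08 (adjusted p = 0.176). None of these lists was called in a single direction.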

How the data were processed

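Counts from RNA-Seq of 6 H1155 libraries, 3 of each label, were used. The deposited values are unnormalized counts for each gene, beside the gene's length, start and end. According to the study's methods, mRNA was selected with poly-T beads, aligned to GRCh38/hg38 with Hisat2 and counted with featureCounts, whereas the submitters' processing notes list Bowtie2 and HTSeq. The annotation, the strand setting and the rule for reads with several matches are not given in the sources used here. The A549 and ChIP data were not analysed here.

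Genes were tested with edgeR 4.0.16 in R 4.3.3: genes were filtered with filterByExpr, scaled with TMM and fitted by quasi-likelihood with no block, and Benjamini-Hochberg adjustment over all 17514 genes tested, with calls up to an adjusted p of 0.05 and no minimum fold. Standard errors were taken from the log2 fold change and its F statistic. A normalized count is the count scaled from its library's TMM effective size to the mean effective size. FPKM was derived with the deposited gene lengths and the summed counts of each library, and only FPKM was compared between genes. Exact permutation of 3 against 3 libraries cannot give a p below 0.1 and was not used. The values of libraries of a group differed by more than sampling noise (chi-square per degree of freedom 1.81 to 4.1 over 17229 genes).

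GC content was taken from the longest GENCODE release 44 transcript and was known for 58207 of 58735 genes (99.1%). The correction used offsets from natural splines of GC content and length, 5 degrees of freedom, fitted to each library. Genes sharing over 10% of their 50-base stretches with other genes are named as uncertain. Promoters are from RefSeq.

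The members, lists and tests were chosen with earlier results of these data known. Named genes are the members, GFI1, the most abundant markers and, of each of the 3 further lists, the 3 called genes with the largest change and a mean of at least 100 counts. COL1A1, COL3A1, PDGFRA, DCN and CD3E were named after their values were seen. Alternatives were DESeq2 1.42.0, limma-voom (limma 3.58.1), other normalization factors, filters and thresholds, the replicate block, the correction with and without the block, and each library left out. The steps were tested on simulated data. The floor of 3 counts covers counting error only. Figures were made in matplotlib 3.10.9 (Python 3.11.15), and tables were handled with numpy 2.4.6 and pandas 2.3.3.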

Additional observations from a re-analysis of the deposited data

How the results depend on the processing

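Of 496 refits of the 31 members under 16 alternatives, 453 kept the direction and the side of the threshold and 30 changed direction, some of them with a lost or gained call. Of the rest, 8 lost and 5 gained a call in the same direction. Apart from the correction for GC content and length, 28 members kept both in every alternative run, the exceptions being ACAT2, HSD17B7 and ABCA1. With the correction, with or without the replicate block, 13 members changed direction, to 0.30 (ACAT2), -0.11 (MVD), -0.15 (EBP), -0.27 (SREBF1), -0.20 (SCAP), 0.13 (INSIG2) and 0.11 (ABCA1) in both, and, without and with the block, to -0.0745 and -0.0726 (MVK), -0.0614 and -0.0623 (FDPS), -0.0697 and -0.0692 (TM7SF2), 0.0254 and 0.0268 (HSD17B7), -0.0271 and -0.0269 (SREBF2) and 0.0455 and 0.0455 (ACACA), and the cause was not tested. In it, 9 called members lost their call: MVK, PMVK, MVD, FDPS, TM7SF2, HSD17B7, SREBF2, INSIG2 and STARD4. ACAT2, at -0.00, was also at 0.00753 with no filter and between -0.0511 and 0.0467 with each library left out.

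The 12 members called higher became 4 with the correction, 4 with the correction and the block, and 6 where the log2 fold change also had to reach 0.5 in size, and the 16 called lower became 9 with that minimum. Of the further sterol genes, the 5 called lower became 3 with DESeq2, with the correction, with the correction and the block, and with the adjusted p limited to 0.01, and 2 with the fold minimum. The fold minimum left 6 of the 10 further fatty acid synthesis genes called lower. Of the fatty acid oxidation genes, it left 3 of 6 called higher and 1 of 6 called lower, and the correction, alone or with the block, left 2 called lower. A stricter threshold can only remove calls.

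Deviations of same-numbered libraries correlated at -0.00362, 0.0164 and 0.0238, and those of differently numbered libraries at -0.0517 to 0.0427. No pairing by replicate number was thus seen, which does not show that the libraries were prepared without pairing. With the replicate block, 12 members were called higher and 16 lower, and no member changed its call. No normalization alternative moved the median log2 fold change of all genes by more than the -0.04 of the upper-quartile factors. Depth limits CYP51A1 most, at 19 to 111 counts a library.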
